A study of Capra hircus with 6 samples.

Results

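The acyltransferases that build triglyceride from glycerol-3-phosphate were examined in goat intramuscular preadipocytes after silencing of LIPG, the gene of endothelial lipase. The 10 genes were taken by name from the deposited table of 27271 genes, 18989 of which carry a name. GPAM, GPAT3 and GPAT4 belong to the GPAT step, AGPAT1, AGPAT2, AGPAT3, AGPAT4 and AGPAT5 to the AGPAT step, and DGAT1 and DGAT2 to the DGAT step. Every name was found, and 9 of the 10 genes had at least 1 read in at least 1 library.

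In this pathway a glycerol-3-phosphate acyltransferase (GPAT) adds the first fatty acid to the glycerol backbone and an acylglycerol-phosphate acyltransferase (AGPAT) adds the next, which gives phosphatidate. After a lipin removes the phosphate, a diacylglycerol acyltransferase (DGAT) adds the last fatty acid and completes the triglyceride, which fat cells store in lipid droplets. Phosphatidate and diacylglycerol are also used to make membrane phospholipids, so the GPAT and AGPAT steps work in every cell, while DGAT activity commits diacylglycerol to storage.

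The cells came from the longissimus dorsi muscle of Jianzhou goats at 3 days of age and were of wild-type genotype. The NC groups (n = 3) were transfected with a negative control siRNA and the Si-LIPG groups (n = 3) with an siRNA against LIPG, and all 6 cultures were then kept for 48 h in a medium that induces differentiation and holds 50 μmol/L oleic acid. The cells were primary cells purified by their early attachment to plastic. The methods call the replicates of the study biological without saying whether they came from separate animals, and p-values here measure the spread between these cultures. Because these are bulk samples, fewer cells of a type and less RNA per cell cannot be told apart.

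The depth behind the 10 genes was low. Reads counted on genes numbered between 524776 and 703680 in the NC libraries and between 864882 and 1051230 in the Si-LIPG libraries, while 91.6% to 93.7% of all reads in each library fell on no annotated gene. Libraries were prepared by a method that marks the strand, and the strand setting of the counting is not given in the sources used here. ND6, the 1 mitochondrial protein gene on the strand opposite to the other 12, had an FPKM (a read count per length of the gene and per depth of the library) of 22.6 to 99.3 times the median of those 12 genes. It took 5.93% to 9.27% of the counted reads in the NC libraries and 3.04% to 5.39% in the Si-LIPG libraries. The counts of a gene below may therefore include, or consist mainly of, reads from its opposite strand, and which strand they came from was not tested. Levels, shares and zeros below are those of the counts and are not read as levels of the transcripts. Among counts between 1 and 20, 63.4% to 67.6% were even in every library, where no excess over about 50% would be expected without counting in pairs. Counting intervals are therefore also given for counts divided by 2, rounded up in each library. LIPG itself had 0, 2 and 0 counts in the NC cultures and 0, 2 and 2 after silencing, which is too few to check the knockdown. The paper reports the knockdown of LIPG at the transcript level by quantitative PCR and at the protein level by Western blot.

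Of the 12 preadipocyte and mesenchymal markers found, 11 were counted in every library and DLK1 was at 0 in all. Their summed level was 36520 to 74251 CPM (a read count scaled for the reads on genes in a library) in the NC libraries and 96578 to 102516 CPM in the Si-LIPG libraries. Of 8 markers of mature adipocytes, LPL and CD36 were at 0 in every library, and the summed level was 9.53 to 22.7 CPM in the NC libraries and 18.5 to 38.7 CPM in the Si-LIPG libraries. The 8 muscle markers found summed to 172 to 234 CPM and 295 to 322 CPM, respectively. Of 5 endothelial markers, CDH5, KDR and TEK were at 0, and the sum was at most 6.64 CPM in the NC libraries and 7.12 CPM in the Si-LIPG libraries. Of 6 macrophage and leukocyte markers, PTPRC and ITGAM were at 0 and 3 were counted in every library, with sums of 27.0 to 43.2 CPM for NC and 26.5 to 33.3 CPM for Si-LIPG. The part of these markers in the values below was not tested. The paper reports LPL and CD36 transcripts measured by quantitative PCR (RT-qPCR) in such cells after LIPG knockdown. The lack of counts on LPL and CD36 is therefore not read as a lack of expression.

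All 10 acyltransferases together took 122 counts in the NC libraries and 401 in the Si-LIPG libraries. The number of acyltransferase genes with a count was 3, 6 and 5 in the NC groups and 7, 9 and 9 in the Si-LIPG groups, where values are given here and below in the order of libraries 1 to 3. If every library had the depth of the shallowest, 3.00, 5.98 and 4.74 genes would be expected for NC and 6.50, 8.92 and 8.47 for Si-LIPG. More of the acyltransferases were thus seen in each Si-LIPG library. Of all genes, without that correction for depth, 32.7% to 38.9% had a count in the NC libraries and 42.3% to 45.3% in the Si-LIPG libraries.

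**Figure D1:**
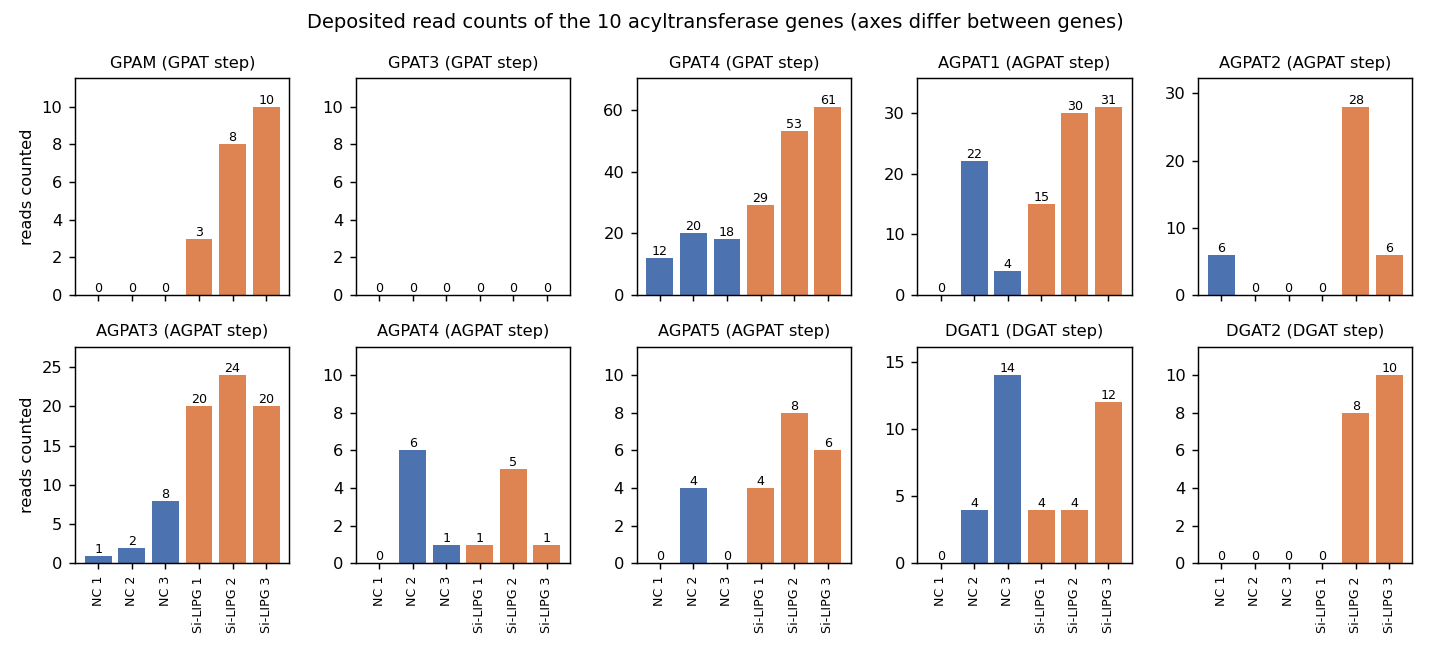
Reads counted on each of the 10 acyltransferase genes (vertical axis, deposited counts, axes differ between genes) in the 3 NC libraries (blue) and the 3 Si-LIPG libraries (orange), with the count printed on each bar. GPAT4 had 12 to 61 reads in every library, GPAM and DGAT2 had none in the NC libraries, and GPAT3 had none anywhere.

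GPAT4 was the most steadily counted member. It encodes a glycerol-3-phosphate acyltransferase of the endoplasmic reticulum and lipid droplets. Its counts were 12, 20 and 18 in the NC groups and 29, 53 and 61 in the Si-LIPG groups, which is 36.9% of all counts on the 10 genes. As deposited FPKM values these were 3.58, 5.20 and 4.002 in the NC groups (4.26 ± 0.840, SD, n = 3) and 5.25, 8.44 and 9.08 in the Si-LIPG groups (7.59 ± 2.05, SD, n = 3). The groups did not overlap in FPKM, with Si-LIPG library 1 just above NC library 2, but 30.2% of the 6574 genes tested also lay wholly higher in the Si-LIPG groups in FPKM. After TMM normalization, which scales libraries on the assumption that most genes do not change, GPAT4 had 38.9, 36.0 and 28.4 CPM in the NC groups and 32.7, 43.2 and 44.6 CPM in the Si-LIPG groups. On that scale the groups overlapped, with Si-LIPG library 1 below 2 of the 3 NC libraries. The log2 fold change was 0.24 (SE 0.45, 95% interval -0.73 to 1.20, edgeR quasi-likelihood test, Benjamini-Hochberg adjusted p = 0.826).

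GPAM and GPAT3 were at the limit of detection or below it. GPAM encodes the mitochondrial GPAT, known as a target of insulin and of the lipogenic factor SREBP-1c in liver and fat. It had 0 counts in all 3 NC libraries and 3, 8 and 10 counts in the Si-LIPG groups, or 1.27, 2.98 and 3.48 FPKM. A count of 0 allows up to 3 counts, which for GPAM is 1.56 to 2.09 FPKM in the NC libraries, so that the level of Si-LIPG library 1 lay below what could have been missed. After TMM scaling the summed GPAM counts were 3.01 times a limit of 3 counts over the NC group. The exact 95% counting interval of the ratio began at 2.24, or at 1.08 with counts divided by 2. Like all counting intervals below, this one covers counting error only and leaves out the spread between cultures. In all, 320 of the 27271 genes (1.17%) had no count in any NC library and a count in all 3 Si-LIPG libraries, and the reverse held for 17 genes, no acyltransferase among them. GPAT3, the endoplasmic reticulum enzyme that is induced when fat cells form, was at 0 in all 6 libraries. As for LPL and CD36, counts of 0 on GPAM or GPAT3 are not read as a lack of expression.

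Within the GPAT step GPAT4 held 100% of the summed FPKM in each NC library. In Si-LIPG libraries 1, 2 and 3 it held 80.5%, 73.9% and 72.3%, and GPAM the rest. The whole step had 38.9, 36.0 and 28.4 TMM-normalized CPM in the NC groups and 36.1, 49.7 and 51.9 in the Si-LIPG groups, so that the groups overlapped.

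AGPAT3 differed most between the groups among the 3 acyltransferases that could be tested, without passing the test. It encodes an acyltransferase of the endoplasmic reticulum and Golgi. Its counts were 1, 2 and 8 in the NC groups and 20, 24 and 20 in the Si-LIPG groups. The FPKM values were 1.68, 2.94 and 10.1 in the NC groups (4.89 ± 4.51, SD, n = 3) and 20.4, 21.6 and 16.8 in the Si-LIPG groups (19.6 ± 2.49, SD, n = 3). On the TMM scale AGPAT3 had 3.24, 3.60 and 12.6 CPM against 22.6, 19.6 and 14.6 CPM. The groups did not overlap on either scale, with NC library 3 close to Si-LIPG library 3 on the second. Of all tested genes, 15.2% lay wholly higher in the Si-LIPG groups on the TMM scale. The log2 fold change of AGPAT3 was 1.43 (SE 0.84, 95% interval -0.36 to 3.21, edgeR, adjusted p = 0.366). AGPAT3 entered the test only through the Si-LIPG groups: the filter asked for 12.8 CPM, before TMM, in 3 libraries, which all 3 Si-LIPG libraries and no NC library reached, so a difference in that direction was built into its selection. Without NC library 3 the log2 fold change was 2.40, with an unadjusted p under 0.05 (edgeR, adjusted p = 0.201).

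AGPAT1 had the highest mean FPKM of the 10 genes in both groups, with a wide spread and over a length of only 972 bases. It encodes a broadly expressed acyltransferase of the endoplasmic reticulum. Its counts were 0, 22 and 4 in the NC groups and 15, 30 and 31 in the Si-LIPG groups. In FPKM these were 0, 37.6 and 5.85 (14.5 ± 20.2, SD, n = 3) and 17.8, 31.4 and 30.3 (26.5 ± 7.54, SD, n = 3). NC library 2 stood above every Si-LIPG library and the other two NC libraries stood below them all. The log2 fold change was 0.40 (SE 0.87, 95% interval -1.45 to 2.24, edgeR, adjusted p = 0.852), and its sign depended on single NC libraries. AGPAT1 passed the filter through all 3 Si-LIPG libraries and 1 NC library. The log2 fold change was -0.10 without NC library 1, -0.03 without NC library 3 and 2.41 without NC library 2, where the unadjusted p was under 0.05 (adjusted p = 0.193).

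AGPAT2, AGPAT4 and AGPAT5 had too few counts for the test. AGPAT2 is the AGPAT most tied to adipose tissue, since its loss causes congenital generalized lipodystrophy. It had 6, 0 and 0 counts in the NC groups and 0, 28 and 6 in the Si-LIPG groups, or 13.7 FPKM in NC library 1 and 34.0 and 6.82 FPKM in Si-LIPG libraries 2 and 3. The groups overlapped, and 1 library held most reads in each. AGPAT5, which is found at mitochondria, had 0, 4 and 0 counts for NC and 4, 8 and 6 for Si-LIPG, with NC library 2 within the Si-LIPG range in FPKM (4.65 against 3.24 to 5.70). AGPAT4, known for its high level in brain, had 0, 6 and 1 counts against 1, 5 and 1, the lowest total of the genes with any count (14). In summed counts scaled by TMM, the ratio of Si-LIPG over NC was 2.44 for AGPAT2 (exact 95% counting interval 1.01 to 7.10), 1.94 for AGPAT5 (0.638 to 7.86) and 0.430 for AGPAT4 (0.129 to 1.44). With counts divided by 2 all 3 intervals held 1, that of AGPAT2 running from 0.705 to 13.0. These intervals cover counting error only and leave out the spread between cultures.

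No AGPAT led its step throughout. In NC libraries 1, 2 and 3 the largest share of the step's summed FPKM was that of AGPAT2 (89.0%), AGPAT1 (78.2%) and AGPAT3 (61.6%). In Si-LIPG libraries 1, 2 and 3 it was that of AGPAT3 (48.8%), AGPAT2 (36.1%) and AGPAT1 (52.1%). The NC shares rest on 7, 34 and 13 counts in the whole step and the Si-LIPG shares on 40, 95 and 64 counts. AGPAT1 and AGPAT3 both held at least 22.9% in each Si-LIPG library. The step summed to 22.7, 61.2 and 20.5 TMM-normalized CPM in the NC groups and 45.1, 77.4 and 46.7 in the Si-LIPG groups, and the groups overlapped through NC library 2.

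**Figure D2:**
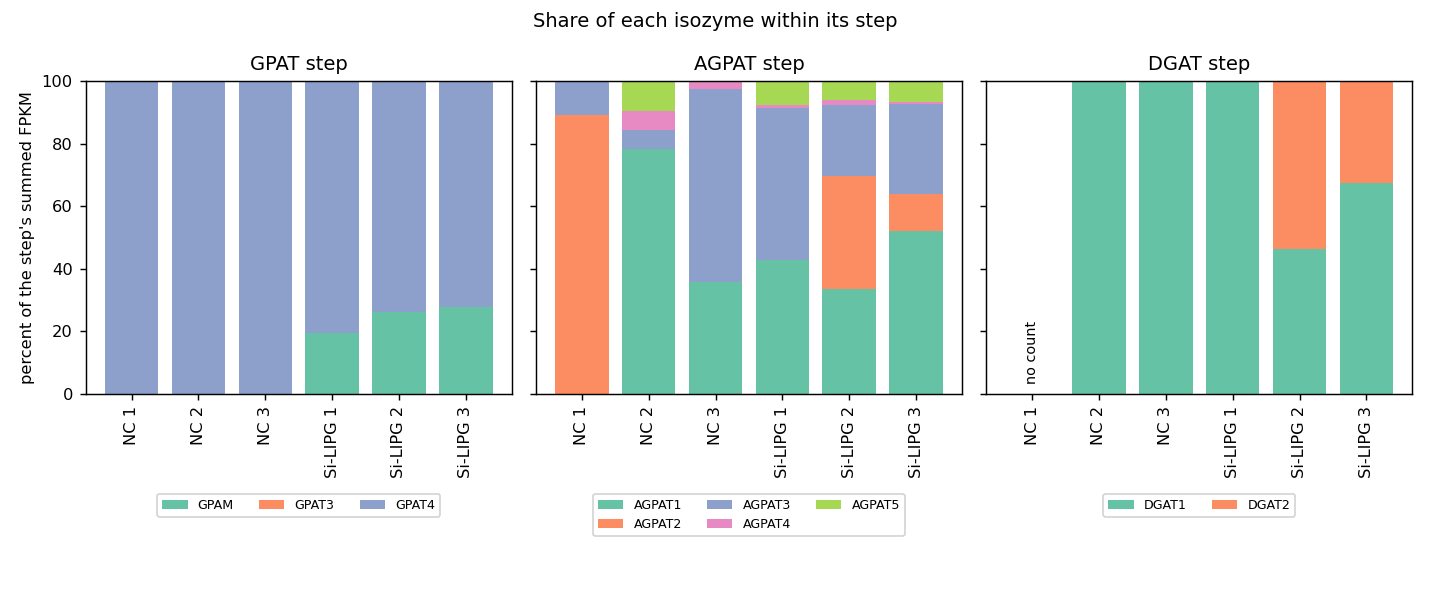
Share of each isozyme in the summed FPKM of its step (vertical axis, percent) in each library, with 1 panel for each step and 1 color for each gene. GPAT4 held 100% of the GPAT step in the NC libraries and 72.3% to 80.5% in the Si-LIPG libraries, the leading AGPAT changed from library to library, and NC library 1 had no count on either DGAT gene.

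The DGAT genes, which encode unrelated enzymes for the same reaction, had 18 counts in the NC groups and 38 in the Si-LIPG groups. DGAT1, an enzyme of the endoplasmic reticulum, had 0, 4 and 14 counts in the NC groups and 4, 4 and 12 in the Si-LIPG groups. Its FPKM was 0, 4.37 and 13.1 in the NC groups (5.82 ± 6.67, SD, n = 3) and 3.04, 2.68 and 7.51 in the Si-LIPG groups (4.41 ± 2.69, SD, n = 3). All 3 Si-LIPG values fell inside the NC range. The ratio of summed counts was 0.478 on the TMM scale (exact 95% counting interval 0.240 to 0.958, or 0.175 to 1.33 with counts divided by 2) and 1.29 when scaled to all reads (0.647 to 2.58), so its direction depended on the scaling.

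DGAT2, the enzyme that works at lipid droplets and supplies much of the triglyceride made from newly synthesized fatty acids, had 0 counts in the NC groups and 0, 8 and 10 counts in the Si-LIPG groups, or 3.12 and 3.65 FPKM in libraries 2 and 3. Si-LIPG library 1 was thus like the NC libraries, in which a count of 0 allows up to 1.64 to 2.19 FPKM. On the TMM scale the summed DGAT2 counts were 2.58 times a limit of 3 counts over the NC group, and the exact 95% counting interval of the ratio began at 1.89. With counts divided by 2 it began at 0.849 and so held 1. GPAM and DGAT2 were among 812 genes (2.98% of all) with no count in any NC library and a count in at least 2 Si-LIPG libraries, against 143 genes (0.524%) with the reverse pattern. Where any DGAT read was found, DGAT1 held 100% of the step's FPKM in NC libraries 2 and 3 and Si-LIPG library 1, 46.2% in Si-LIPG library 2 and 67.3% in Si-LIPG library 3.

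**Figure D3:**
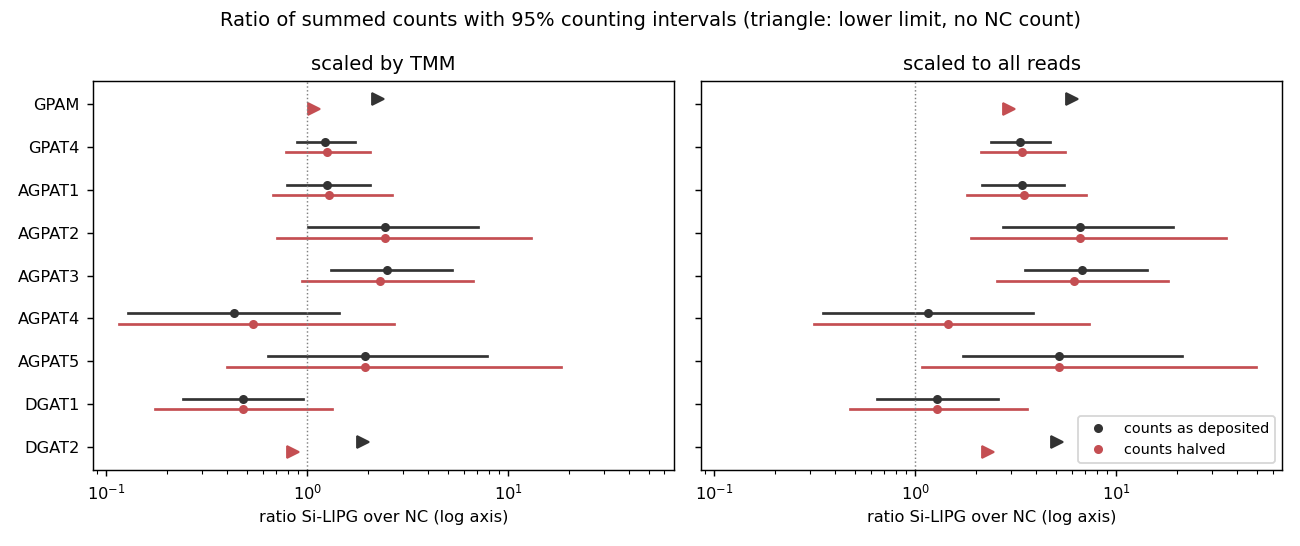
Ratio of summed counts, Si-LIPG over NC (horizontal log axis), for the 9 acyltransferases with any count, scaled by TMM (left) or to all reads (right). Points and lines are ratios with exact 95% counting intervals for the deposited counts (black) and the counts divided by 2 (red), and triangles are the lower limits of these intervals for GPAM and DGAT2, which had no NC count. On the TMM scale the ratios of AGPAT4 and DGAT1 lie below 1, and on the scale of all reads every ratio lies above 1. The intervals leave out the spread between cultures.

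In order of mean FPKM within the NC groups, AGPAT1 (14.5) was followed by DGAT1 (5.82), AGPAT3 (4.89), AGPAT2 (4.55), GPAT4 (4.26), AGPAT5 (1.55) and AGPAT4 (1.11). In the Si-LIPG groups the order was AGPAT1 (26.5), AGPAT3 (19.6), AGPAT2 (13.6), GPAT4 (7.59), DGAT1 (4.41), AGPAT5 (4.31), GPAM (2.57), DGAT2 (2.26) and AGPAT4 (0.702). The ranges of neighbours in this order overlapped in every case but that of AGPAT4 and GPAT3, the last of the Si-LIPG order, where GPAT3 was at 0. The order in the NC groups therefore gives no firm ranking of the acyltransferases. Without NC library 2, AGPAT1 ranked 5 there (2.92 FPKM). The lengths behind FPKM were 972, 837 and 1131 bases for AGPAT1, AGPAT2 and AGPAT3. For the other genes with any count they ran from 1429 (AGPAT5) to 6392 (GPAT4). The order and the shares within steps depend on these lengths, and whether they cover the full transcripts was not tested.

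The test across all genes asked whether an acyltransferase met the criterion of a fold change over 1.5 with an unadjusted p under 0.05. Only GPAT4, AGPAT1 and AGPAT3 passed the filter on low counts, and 0 of these met it by edgeR (0 with an unadjusted p under 0.05), where 20.7% of the 6574 genes tested met it in either direction and 7.83% as higher in the Si-LIPG groups. An adjusted p under 0.05 was found for 6.51% of the tested genes and for no acyltransferase. DESeq2, which kept 9 of the 10 genes, also placed 0 at the criterion (0 with an unadjusted p under 0.05) against 11.4% of its 14848 genes. In edgeR without the filter on low counts, GPAM met it (adjusted p = 0.316) and the other 8 did not, where 6.7% of all genes met it as higher. The intervals of GPAT4, AGPAT1 and AGPAT3 all held 0 and reached log2 fold changes of 1.20, 2.24 and 3.21. By RT-qPCR after LIPG knockdown, the paper reports no obvious change of GPAT4, there called AGPAT6, or of DGAT1.

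The scaling moved all 3 tested acyltransferases together with the other genes. The median log2 fold change of all tested genes was 0.16 with TMM, 0.74 without TMM factors and 1.58 with every read of a library, on a gene or not, as its size. Reads counted on genes were 0.997% to 1.53% of all reads in the NC libraries and 1.80% to 2.88% in the Si-LIPG libraries. Scaled to all reads, the log2 fold change was 1.76 for GPAT4 (edgeR, adjusted p = 0.0709), 2.71 for AGPAT3 (adjusted p = 0.0598) and 1.71 for AGPAT1 (adjusted p = 0.237). GPAT4 and AGPAT3 then met the criterion, as did 46.1% of all tested genes in that direction, and 51.9% of the tested genes lay wholly higher in the Si-LIPG groups. With TMM, 515 genes rose and 846 fell at the criterion, and 3030 of 3032 were higher when scaled to all reads. Without TMM factors the log2 fold change was 0.85 for GPAT4, 0.88 for AGPAT1 and 1.94 for AGPAT3. GPAT4, the 1 member over the filter in all 6 libraries, thus moved with the median of all tested genes. AGPAT1 and AGPAT3 passed the filter through the Si-LIPG groups, so nothing is read from where they lie above it.

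**Figure D4:**
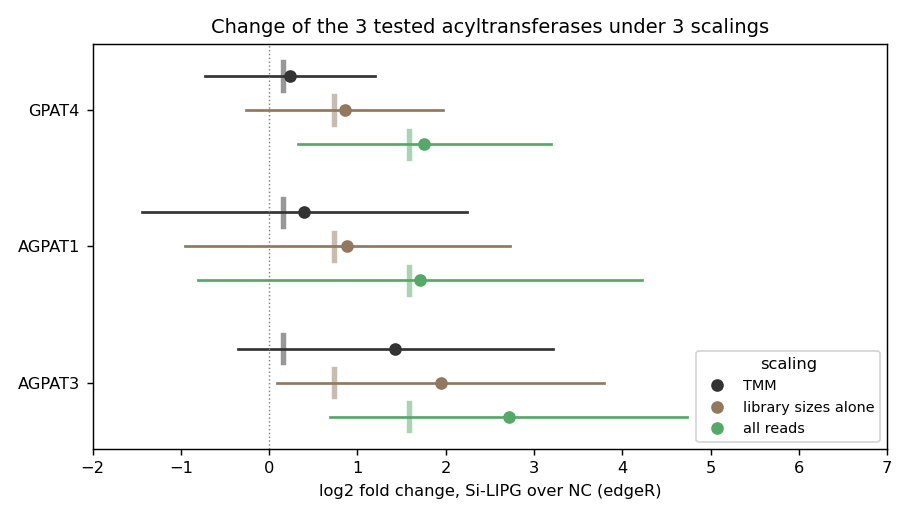
Log2 fold change, Si-LIPG over NC (horizontal axis, edgeR), of the 3 tested acyltransferases under 3 scalings, with points for the estimates, lines for 95% intervals and thick vertical ticks for the median of all tested genes under the same scaling (0.16, 0.74 and 1.58). GPAT4 and AGPAT1 sit near the median tick each time, AGPAT3 sits to its right, and all 3 intervals hold 0 with TMM.

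Neighbouring genes could share reads with some of the acyltransferases, or overlaps could take reads from them. All 10 were found in RefSeq genes of assembly ARS1.2, where AGPAT1 overlaps EGFL8 and lies within 1000 bases of RNF5, AGPAT2 lies within 1000 bases of EGFL7, and AGPAT3 overlaps a pseudogene, LOC102169428. The other 7 had no gene that close. EGFL8 was at 0 in every library, and RNF5, a ubiquitin ligase gene, had 8, 18 and 9 counts in the NC groups and 4, 29 and 26 in the Si-LIPG groups. RNF5 and AGPAT1 both had their highest NC count in library 2, but differed in NC library 1 (8 against 0) and Si-LIPG library 1 (4 against 15). EGFL7 had 0, 8 and 6 counts in the NC groups and 6, 4 and 2 in the Si-LIPG groups, unlike AGPAT2. Whether reads were shared or lost was not tested, and the values of AGPAT1, AGPAT2 and AGPAT3 are uncertain to that extent.

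Of 51 other glycerolipid genes (suppliers of glycerol-3-phosphate, phosphatidate phosphatases, other glycerolipid and sterol acyltransferases, users of phosphatidate and diacylglycerol, and partners of the enzymes), 42 were found, 15 had enough counts, and 1 was higher and 1 lower at the criterion by edgeR, against 20.7% of all tested genes at the criterion in either direction, so that these genes did not stand out by their number. Their median log2 fold change was 0.30, against 0.16 over all tested genes. More of them passed the filter mainly through the Si-LIPG groups than mainly through the NC groups. A higher median was thus favoured by the selection, and nothing is read from it. The lipins and other phosphatidate phosphatases, which link the AGPAT and DGAT steps, had 2 genes tested, with 0 at the criterion by edgeR (0 with an unadjusted p under 0.05) and 0 by DESeq2. CHP1, the calcium-binding partner that GPAT4 needs for its activity, had a log2 fold change of 1.31 (SE 0.64, edgeR, adjusted p = 0.265) and did not meet the criterion. It passed the filter through all 3 Si-LIPG libraries and 1 NC library, so a difference in this direction was favoured by its selection.

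The gene that fell was GPAT2, a mitochondrial relative of GPAM best known from germ cells, where it takes part in making piRNAs. It had 328, 330 and 319 counts in the NC groups and 305, 209 and 191 in the Si-LIPG groups, or 79.2 ± 12.6 FPKM (SD, n = 3) and 36.4 ± 13.3 FPKM (SD, n = 3), above the mean of every one of the 10 acyltransferases in both groups. The groups did not overlap on the TMM scale, where 13.4% of all tested genes lay wholly lower in the Si-LIPG groups. All 6 libraries were over the filter. The log2 fold change was -1.72 (SE 0.41, edgeR, adjusted p = 0.0395). Scaled to all reads it was -0.28 (adjusted p = 0.465) and no longer met the criterion. With TMM, GPAT2 met the criterion whichever 1 library was left out. Its adjusted p (edgeR) rose to 0.0848, 0.0594, 0.243 and 0.253 without NC library 1, NC library 2, Si-LIPG library 2 and Si-LIPG library 3. It was 0.0369 without NC library 3 and 0.00697 without Si-LIPG library 1. Genes near GPAT2 were not looked for and the strand of its reads was not tested, so its FPKM is not read as its transcript level.

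The gene that rose at the criterion was PTPMT1, a mitochondrial phosphatase of cardiolipin synthesis. It had 0, 2 and 12 counts in the NC groups and 20, 46 and 42 in the Si-LIPG groups. The groups did not overlap on the TMM scale, as for 15.2% of all tested genes in this direction. It passed the filter through all 3 Si-LIPG libraries and 1 NC library, so a difference in this direction was favoured by its selection. The log2 fold change was 1.82 (SE 0.82, edgeR, adjusted p = 0.218). It no longer met the criterion when NC library 1, NC library 2 or any 1 of the Si-LIPG libraries was left out (adjusted p between 0.252 and 0.555), and without NC library 3 its adjusted p was 0.0466.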

How the data were processed

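RNA-seq of 3 NC and 3 Si-LIPG cultures was analysed, grouped by sample titles. The authors deposited counts of reads on 27271 genes, 1 file per library, with 5 rows for reads on no gene, which entered neither library sizes nor tests except where counts were scaled to all reads. They also deposited FPKM values made from the same counts. The submitters' processing notes name fastp, HISAT2, SAMtools and HTSeq. Versions, genome build and strand setting are not given in the sources used here, so no coordinates were printed.

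Counts were filtered with filterByExpr (minimum count 10), TMM-normalized and tested by edgeR 4.0.16 (quasi-likelihood test, R 4.3.3) on all 6574 genes kept, with Benjamini-Hochberg adjustment over them. DESeq2 1.42.0, the study's tool, and limma 3.58.1 on log2(FPKM + 1) and log2(FPKM + 0.1) were alternatives, as were other size factors and filters, counts divided by 2, a replicate block and leaving out each library. The fold change threshold was 1.5. Procedures were tested on simulated data. Counting intervals were exact binomial (95%). The 10 genes, the gene lists and the scaling to all reads were chosen with earlier results of these data known. All 10 genes are named, and of the other lists the genes at the criterion. CHP1 was named after its values were seen.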

Additional observations from a re-analysis of the deposited data

How the results depend on the processing

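Acyltransferases at the criterion numbered 0 under TMM and 1 with library sizes alone (AGPAT3), 2 when scaled to all reads (GPAT4 and AGPAT3), 1 without a filter on low counts (GPAM), and 1 with limma on either log2(FPKM + 1) or log2(FPKM + 0.1) (AGPAT3), and leaving out 1 library gave 0 to 1. Their count stayed at 0 with DESeq2, DESeq2 size factors and upper quartile factors. It was also 0 with at least 10 counts in every sample, where only 1 acyltransferase, GPAT4, was still tested. The same held with counts divided by 2, an alternative chosen after seeing the data in which AGPAT3 was no longer tested. The other glycerolipid genes at the criterion numbered 2 under TMM, 4 with library sizes alone, 9 when scaled to all reads, 4 without a filter, 6 and 4 with limma at the 2 pseudocounts, 1 with counts divided by 2, and 1 to 5 when 1 library was left out. All genes at the criterion numbered 1361 under TMM, 3032 when scaled to all reads, 2044 without a filter, and 871 to 1692 when 1 library was left out (871 without Si-LIPG library 3 and 888 without Si-LIPG library 2). The AGPAT1 log2 fold change ran from -0.10 to 2.41 when 1 library was left out, with -0.03 without NC library 3. The cause of these shifts was not tested. Of the 7 acyltransferases with an NC read, 4 kept their rank by FPKM under TMM-normalized counts per kilobase, 2 with medians over libraries, and 2 to 3 when 1 NC library was left out.

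Libraries of equal replicate number were not shown to be paired: the correlations of their deviations from the group means were 0.210, 0.0639 and 0.105 for numbers 1, 2 and 3, and 4 of the 6 libraries correlated best with their own number, NC library 2 and Si-LIPG library 2 being the exceptions. With a replicate block 0 acyltransferases, 3 other glycerolipid genes and 1550 of all genes met the criterion. Counts of 0 to 61 per acyltransferase and library, the unknown strand of counting and the scaling limit these results, and 7 of the 10 genes could not be tested under the filter.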

Other observations

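FITM2, a protein of the endoplasmic reticulum needed for forming lipid droplets and a gene of the list of enzyme partners, was singled out after its values were seen. It had 0 counts in all 3 NC libraries and 24, 18 and 9 counts in Si-LIPG libraries 1, 2 and 3, or 6.45, 4.26 and 1.99 FPKM. It did not pass the filter on low counts. In edgeR without that filter its adjusted p was 0.0194, where 623 of 14848 genes had an adjusted p under 0.05. In the fits without 1 library in which it passed the filter the adjusted p was between 0.0896 and 0.253. With no NC count it passed there only through the Si-LIPG groups, so a difference in that direction was built into its selection. DESeq2 gave it no adjusted p. Like GPAM, it was among the 320 genes with no count in any NC library and a count in all 3 Si-LIPG libraries.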
